A study of Mus musculus with 23 samples.

Results

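The nuclear genes of respiratory complexes II, III, IV and V, together with the gene of cytochrome c, were examined in the CA3 field of the hippocampus of UBB+1 transgenic (tg) and wild-type mice. A gene was included where a probe set of the arrays was annotated to it alone and its symbol was Sdha, Sdhb, Sdhc, Sdhd, Cyc1 or Cycs, or started with Uqcr, Cox4, Cox5, Cox6, Cox7, Cox8 or Atp5. These symbols gave 48 of the 18192 genes measured, with 96 of 35040 probe sets, of which 86 lie on the MOE430A and 10 on the MOE430B array. They comprise 4 genes of complex II, 9 of complex III, cytochrome c, 17 of complex IV and 17 of complex V. The rule used symbols only and no measured value.

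Complex II, succinate dehydrogenase, passes electrons from succinate to ubiquinone, and complex III, the cytochrome bc1 complex, passes them on to cytochrome c. Complex IV, cytochrome c oxidase, transfers them to oxygen, and complex V, the ATP synthase, uses the proton gradient built up by this chain to form ATP. Neurons depend on this pathway for the ion pumping that synaptic activity requires. Apart from complex II, each complex also holds subunits encoded by mitochondrial DNA, which are not among the genes described here.

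UBB+1 is a frameshifted form of ubiquitin B that carries an altered C-terminus. The tg mice were heterozygous animals of a single line on the C57BL/6J background, in which the CamKIIα promoter drives UBB+1 in neurons of the postnatal brain, and the wild-type mice were their non-transgenic littermates. The mice were 18 months old by the study's methods. CA3 was cut by laser from stained frozen sections, so that the RNA is that of a tissue field and not of sorted neurons, and it was amplified over 2 rounds. There were 6 tg mice and 5 wild-type mice on MOE430A, and 6 of each on MOE430B, 12 mice in all, which are named here by genotype and animal number. The labels give neither litter nor sex, and p-values measure the spread between these mice.

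All array values are log2 intensities summarised by RMA, and a log2 fold change is tg minus wild type. The probe set for a transcribed stretch of the transgene's promoter, which was left out of all tests, lay between 8.45 and 9.34 in tg and between 6.41 and 6.85 in wild-type mice. The mean of 8 neuronal marker genes on MOE430A was 9.48 to 9.68 in tg and 9.37 to 9.62 in wild-type mice. Of the 10 neuronal markers on either array 4 were higher in tg mice, with log2 fold changes from -0.52 to 0.64 and a median of -0.14. The mean of 5 choroid plexus markers was 5.45 to 5.91 and 5.49 to 5.79. Oligodendrocyte markers were higher in tg mice for 7 of 7 genes, with means of 8.24 to 8.72 against 8.04 to 8.42. Microglia markers were higher for 2 of 8, with means of 6.90 to 7.13 against 6.73 to 7.33. For interneurons it was 4 of 7, for astrocytes 3 of 8 and for endothelium 4 of 7. At an unadjusted p under 0.05 (limma) 1 neuronal marker was higher and 2 were lower, and no marker of the other lists was called. None of the 7 marker lists had a gene past the false discovery rate. Clustering of all probe sets parted the mice into 3 sets of arrays, which follow how far the 3′ controls of Gapdh and β-actin exceed their 5′ counterparts on the log2 scale. On MOE430A this 3′-5′ difference was 2.65 to 3.43 in tg271, wt287 and wt290 (low set), 4.44 to 4.62 in tg273, tg274, tg276, tg277, wt291 and wt321 (middle set), and 6.05 to 6.10 in tg270 and wt289 (high set). The tg mice thus had 4 of 6 arrays in the middle set and the wild-type mice 2 of 5, and a second fit, called the blocked fit below, took the array set as a further term. In tissue, fewer cells of a type and less RNA per cell cannot be told apart.

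No gene of complexes II to V differed between the genotypes beyond the spread between mice. With each gene represented by its brightest probe set, 14 of the 48 genes were higher and 34 lower in tg mice, with a median log2 fold change of -0.11 and a range from -0.86 (Atp5e) to 0.29 (Atp5a1). The median over all 22625 probe sets of MOE430A was 0.00. None of the 86 probe sets on MOE430A passed limma at a false discovery rate of 10%, where 0% of all probe sets passed, and none of the 10 on MOE430B, where 0% of all passed. Adjusted p-values from limma were 0.984 to 1.00. At an unadjusted p under 0.05, 1 of the 86 (1.16% against 3.48% of all probe sets) and 0 of the 10 (against 3.05%) were called. The genotypes did not overlap for 0.234% of all probe sets on MOE430A and 0.142% on MOE430B, and for none of the members. In the blocked fit, 0% of all probe sets passed the false discovery rate on MOE430A and 0% on MOE430B, again without any member. At an unadjusted p under 0.05 the blocked fit called 2 of 86 (against 7.19%) and 0 of 10 (against 5.06%).

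By complex, the counts were as follows, without a test of the differences between complexes. Of the 4 genes of complex II 3 were lower, with a median of -0.06, and of the 9 of complex III 7 were lower, with a median of -0.16. In complex IV 11 of 17 genes were lower, with a median of -0.07. Complex V, with 13 of 17 lower, had a median of -0.30. In the blocked fit 19 of the 48 genes were higher, and the medians came to -0.08, -0.07, -0.01 and -0.08 for complexes II, III, IV and V. The median over all 48 genes was then -0.04.

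**Figure D1:**
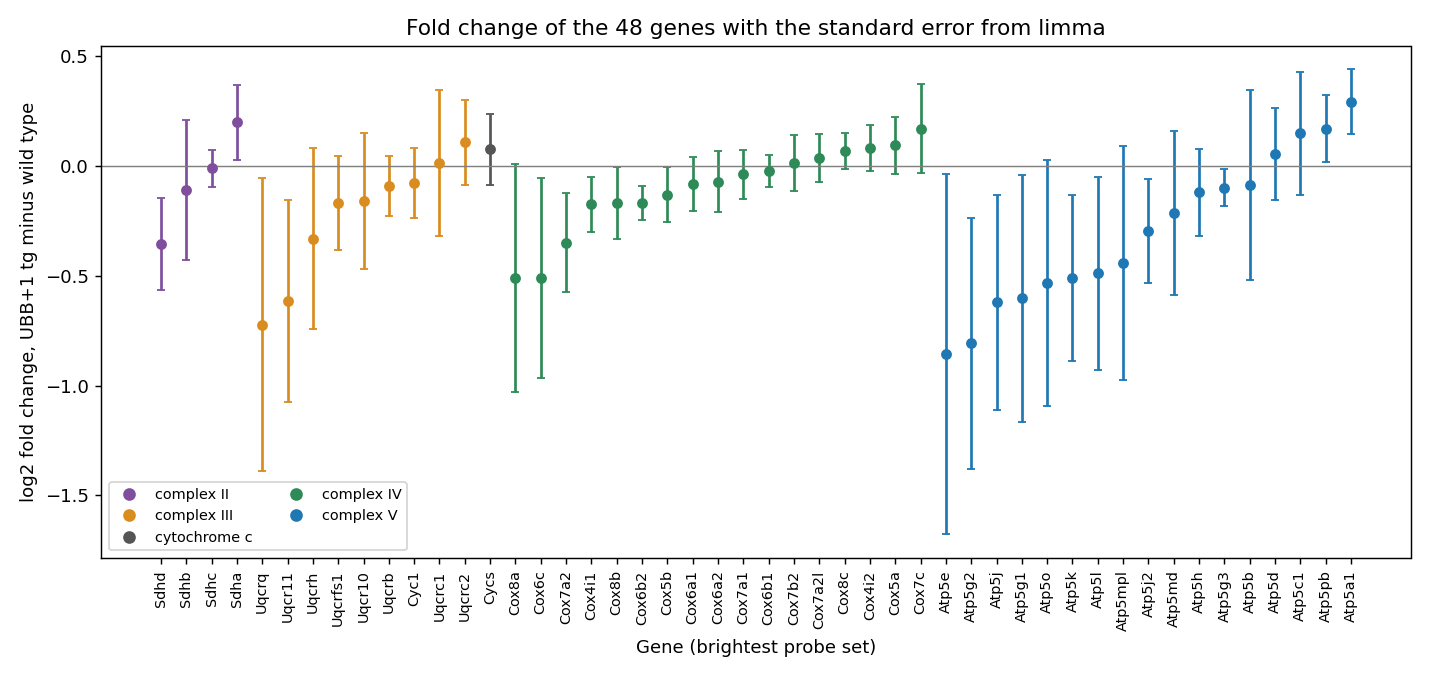
Log2 fold change, tg minus wild type (vertical axis), of the brightest probe set of each of the 48 genes, ordered within its complex (horizontal axis), with bars for the standard error from limma (6 against 5 mice, for Cox7b2 6 against 6). The values run from -0.86 for Atp5e to 0.29 for Atp5a1, and the genes farthest below 0 have the longest bars.

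In complex II, the subunits of the catalytic head differed in sign. Sdha, the flavoprotein that oxidizes succinate, was at 11.45, 11.72 and 12.10 (lowest, median and highest of 6 tg mice) and at 11.28, 12.15, 11.32, 11.30 and 11.63 in wt287, wt289, wt290, wt291 and wt321 (probe set 1426689_s_at). The tg mice lay above the wild-type mean in 5 of 6 cases, but wt289 was the highest mouse of all and the groups overlapped. The difference was 0.20 on the log2 scale (standard error 0.17, limma adjusted p = 0.984), and it was 0.12 for the other probe set on MOE430A. For Sdhb, the iron-sulfur subunit, the tg mice were at 10.91, 12.16 and 12.41 and the wild-type mice at 12.25, 11.05, 12.07, 12.56 and 12.27, in the same order of animals. Its lowest mice were tg270 and wt289, both of the high array set, and its log2 fold change of -0.11 (standard error 0.32) was 0.10 without tg270 and -0.36 without wt289.

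The membrane anchors of complex II, which bind ubiquinone, had the smallest and the largest difference of this complex. Sdhc was at 8.67 ± 0.09 (SD, n = 6) in tg and 8.68 ± 0.16 (SD, n = 5) in wild-type mice with probe set 1435986_x_at, a log2 fold change of -0.01 (standard error 0.08), while its other probe set 1448630_a_at gave -0.65 (standard error 0.40). Sdhd was at 8.24, 8.75 and 9.42 in tg mice and at 9.63, 8.83, 9.45, 9.0 and 8.90 in wild-type mice. Of the tg mice, tg271 alone lay above the wild-type mean, within the range of the wild-type mice. The log2 fold change of -0.36 (standard error 0.21, limma adjusted p = 0.984) was -0.48 without tg271 and -0.24 without wt287. In the blocked fit it was -0.23 (standard error 0.10, limma adjusted p = 0.687). This probe set, 1428235_at, was among the 2 members with an unadjusted p under 0.05 in the blocked fit (limma, 0.0351). The other probe set of Sdhd on MOE430A, 1437489_x_at, had the opposite sign, with 0.03 (standard error 0.21) and 0.13 with the block.

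Complex III had its largest differences in small accessory subunits. Uqcrq was at 8.09, 8.69 and 11.11 in tg mice and at 10.91, 10.69, 11.02, 8.87 and 8.99 in wild-type mice (probe set 1430326_s_at). The values fell into 2 bands: tg270, tg271, wt287, wt289 and wt290 were above 10 and the 6 mice of the middle array set below 9. The log2 fold change was -0.72 (standard error 0.67) at first and -0.11 (standard error 0.16) in the blocked fit. When a mouse was left out it ran from -1.07 (without tg271) to -0.47 (without tg277). Uqcr11 parted the mice likewise, with tg at 9.78, 10.75 and 12.27 and wild type at 12.35, 11.81, 12.21, 10.85 and 10.71, and its difference of -0.62 (standard error 0.46) came to -0.19 with the block. The hinge protein Uqcrh, which assists the passage of electrons to cytochrome c, differed in log2 by -0.33 (standard error 0.41) on MOE430A and -0.80 (standard error 0.98) on MOE430B, and -0.05 and -0.17 with the block. On MOE430A its value was -0.60 without tg270 and -0.11 without tg277.

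The electron-carrying subunits of complex III differed less. Cyc1, cytochrome c1, was at 11.46 ± 0.28 (SD, n = 6) in tg and 11.54 ± 0.28 (SD, n = 5) in wild-type mice, a log2 fold change of -0.08 (standard error 0.16). Its value was 0.02 without tg270 and -0.20 without wt289. Uqcrfs1, the Rieske iron-sulfur protein, was at 10.14 ± 0.45 (SD, n = 6) in tg and 10.31 ± 0.27 (SD, n = 5) in wild-type mice, a log2 difference of -0.17 (standard error 0.21) that was -0.04 without tg270. For the core proteins Uqcrc1 and Uqcrc2 the log2 fold changes were 0.01 (standard error 0.33) and 0.11 (standard error 0.19). The other probe set of Uqcrc2, 1428631_a_at, named after its values were seen, had the highest value of the 86 probe sets on MOE430A, 0.44 (standard error 0.34), which was 0.17 with the block and 0.71 with array weights (limma adjusted p = 0.473). Limma adjusted p-values in complex III were 0.984 to 0.998 on MOE430A.

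Cytochrome c, the mobile carrier between complexes III and IV, was measured by 3 probe sets of Cycs on MOE430A that did not behave alike. The brightest, 1456071_a_at, was at 11.12, 11.28 and 11.95 in tg mice and at 11.30, 11.59, 10.95, 11.43 and 11.36 in wild-type mice, a log2 fold change of 0.08 (standard error 0.16). The groups overlapped, and only tg270 and tg271 were above the wild-type mean. Probe set 1422483_a_at gave -0.63 (standard error 0.55), with tg mice at 7.87, 8.39 and 10.43 and wild-type mice at 10.47, 9.94, 10.06, 8.61 and 8.53. In the blocked fit these values were 0.10 and -0.11.

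In complex IV, the ubiquitous subunits made up most of the lower values. Cox4i1, the regulatory subunit of most tissues, was at 12.36, 12.54 and 12.92 in tg mice and at 13.01, 12.76, 12.86, 12.44 and 12.64 in wild-type mice. Only tg271 lay above the wild-type mean, and the log2 fold change was -0.17 (standard error 0.12, limma adjusted p = 0.984), or -0.07 in the blocked fit. Cox7a2, the isoform of most tissues, was at 11.95, 12.45 and 13.20 in tg mice and at 13.14, 13.02, 13.08, 12.71 and 12.60 in wild-type mice, a log2 difference of -0.35 (standard error 0.22) and of -0.17 with the block. The highest and the lowest mouse were both tg. Cox6c, a nuclear-encoded subunit of the membrane part, gave a log2 difference of -0.51 (standard error 0.45) with its brightest probe set. This came to -0.11 with the block and -0.29 in the middle array set alone. The second probe set of Cox6c gave -0.13 (standard error 0.30), 0.07 with the block and 0.03 in the middle array set alone. Cox5a, which binds to the matrix side, was at 0.09 (standard error 0.13) and 0.17 with the block, although its 3 probe sets averaged gave -0.12. Cox7c, named after its values were seen, had the highest value of complex IV, 0.17 (standard error 0.20) and 0.21 with the block, from a probe set with a mean of 5.34.

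The tissue-restricted isoforms of complex IV, which replace the ubiquitous ones in lung, muscle or testis, showed no difference between the genotypes past the test. Cox6b2, a testis isoform, had the smallest unadjusted p of any gene by its brightest probe set (limma, 0.0528), with tg mice at 5.39, 5.48 and 5.52 and wild-type mice at 5.81, 5.67, 5.75, 5.55 and 5.43. All 6 tg mice lay below the wild-type mean, but wt321 lay within their range. The log2 fold change of -0.17 (standard error 0.08, limma adjusted p = 0.984) was 0.01 in the middle array set alone. The log2 fold changes of the other isoforms were 0.08 for Cox4i2, -0.07 for Cox6a2, -0.04 for Cox7a1, -0.17 for Cox8b, 0.07 for Cox8c and, on MOE430B, 0.01 for Cox7b2. Most isoforms were dim, with means of 6.12 for Cox4i2, 5.55 for Cox6b2, 4.87 for Cox7a1, 5.50 for Cox8b and 4.41 for Cox7b2. The median over all probe sets was 6.36 on MOE430A and 5.50 on MOE430B. Cox6a2 and Cox8c were brighter, at 7.14 and 8.24. At dim levels a lack of difference says little about the isoform. The differences of Cox7a2l, a factor of respiratory supercomplexes rather than a core subunit, were 0.03, -0.07 and -0.33 with its 3 probe sets. Standard errors of the isoforms were 0.08 to 0.16, and the values of Cox6a2, Cox7a1 and Cox7b2 changed sign in the blocked fit.

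By the brightest probe set of each gene, complex V had the value farthest from 0 and the largest median standard error, 0.38. The epsilon subunit Atp5e of the central stalk had the lowest value of all 48 genes (probe set 1416567_s_at). It was at 7.18, 7.85 and 10.39 in tg mice and at 10.61, 10.09, 10.56, 7.36 and 7.82 in wild-type mice. The mice tg270, tg271, wt287, wt289 and wt290 were above 10 and the 6 others below 9, in both genotypes. The log2 fold change of -0.86 had a standard error of 0.82, and in the blocked fit it was -0.09 (standard error 0.21). Atp5e was named after its values were seen.

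The genes Atp5g1, Atp5g2 and Atp5g3 encode the same mature c subunit, which forms the rotating ring of the membrane part Fo. Atp5g1 was at 8.44, 8.99 and 11.08 in tg mice and at 11.04, 10.69, 10.64, 8.83 and 8.95 in wild-type mice, a log2 difference of -0.60 (standard error 0.56) and of -0.07 with the block. Atp5g2 was at 6.69, 7.41 and 9.54 in tg mice and at 9.58, 7.69, 9.63, 7.63 and 7.55 in wild-type mice. Here the low set alone, with tg271, wt287 and wt290, stood at 9.54 to 9.63, and all other mice were below 8. The log2 fold change of Atp5g2 was -0.81 (standard error 0.57) and -0.34 (standard error 0.17) with the block, and it ran from -1.19 (without tg271) to -0.50 (without wt290) when a mouse was left out. Atp5g3 varied least, at 12.82 ± 0.16 (SD, n = 6) and 12.92 ± 0.05 (SD, n = 5), with a log2 difference of -0.10 (standard error 0.08) that stayed between -0.16 and -0.05 under all settings tried.

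The catalytic F1 subunits differed in sign. Atp5a1, the alpha subunit, had the highest log2 fold change of the 48 genes, 0.29 (standard error 0.15, limma adjusted p = 0.984). It was at 12.11, 12.46 and 12.84 in tg mice and at 11.84, 12.44, 11.98, 12.34 and 12.38 in wild-type mice, and 5 of 6 tg mice exceeded the mean of the wild-type mice. A second probe set of Atp5a1, 1423111_at, gave 0.00 (standard error 0.39) and the third -0.02 (standard error 0.12). Atp5b, the beta subunit that holds the catalytic sites, was at 10.04, 12.05 and 12.24 in tg mice and at 11.72, 10.53, 12.08, 12.23 and 12.07 in wild-type mice. Its lowest mice were tg270 and wt289, and its log2 fold change of -0.09 (standard error 0.43) became 0.24 without tg270, -0.38 without wt289 and -0.28 in the blocked fit.

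In the peripheral stalk and the membrane part, Atp5j, coupling factor 6, was at 10.20, 10.80 and 12.81 in tg mice and at 12.06, 12.62, 12.23, 11.23 and 11.16 in wild-type mice. The log2 fold change was -0.62 (standard error 0.49), -0.25 (standard error 0.17) with the block, -0.93 without tg270 and -0.41 without tg277. In the middle array set alone, with 4 tg and 2 wild-type mice, it was -0.62. Atp5k, the e subunit of the membrane part, gave a log2 difference of -0.51 (standard error 0.38) and of -0.19 with the block, for 1450640_x_at. Its probe set 1422525_at gave -0.14 (standard error 0.33) and 0.10 with the block, and 1434053_x_at gave -0.66 (standard error 0.59) and -0.19. The b subunit gene Atp5pb, named after its values were seen, held the member probe set with an unadjusted p under 0.05, 1426742_at (limma, 0.0433), with a log2 difference of -0.25 (standard error 0.11). Its brighter probe set 1433562_s_at gave 0.17 (standard error 0.15), the opposite sign.

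The levels of these genes varied more between the array sets than between the genotypes. The level of each probe set was centred on its mean over the 11 mice of MOE430A, and the median over the 86 probe sets was taken in each mouse. This median was 0.21 to 0.26 in the 3 mice of the low set, 0.24 to 0.33 in the 2 of the high set and -0.30 to -0.11 in the 6 of the middle set. By genotype it was -0.03 ± 0.26 (SD, n = 6) in tg and 0.08 ± 0.20 (SD, n = 5) in wild-type mice. For complex V the median was 0.32 to 0.62 in the low set, 0.42 to 0.52 in the high set and -0.76 to -0.07 in the middle set. The lowest mouse was tg277, in which 24 of 47 genes had their lowest value of all mice, ties included. Without tg277 the median log2 fold change of complex V was -0.21, and without tg271 it was -0.43.

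**Figure D2:**
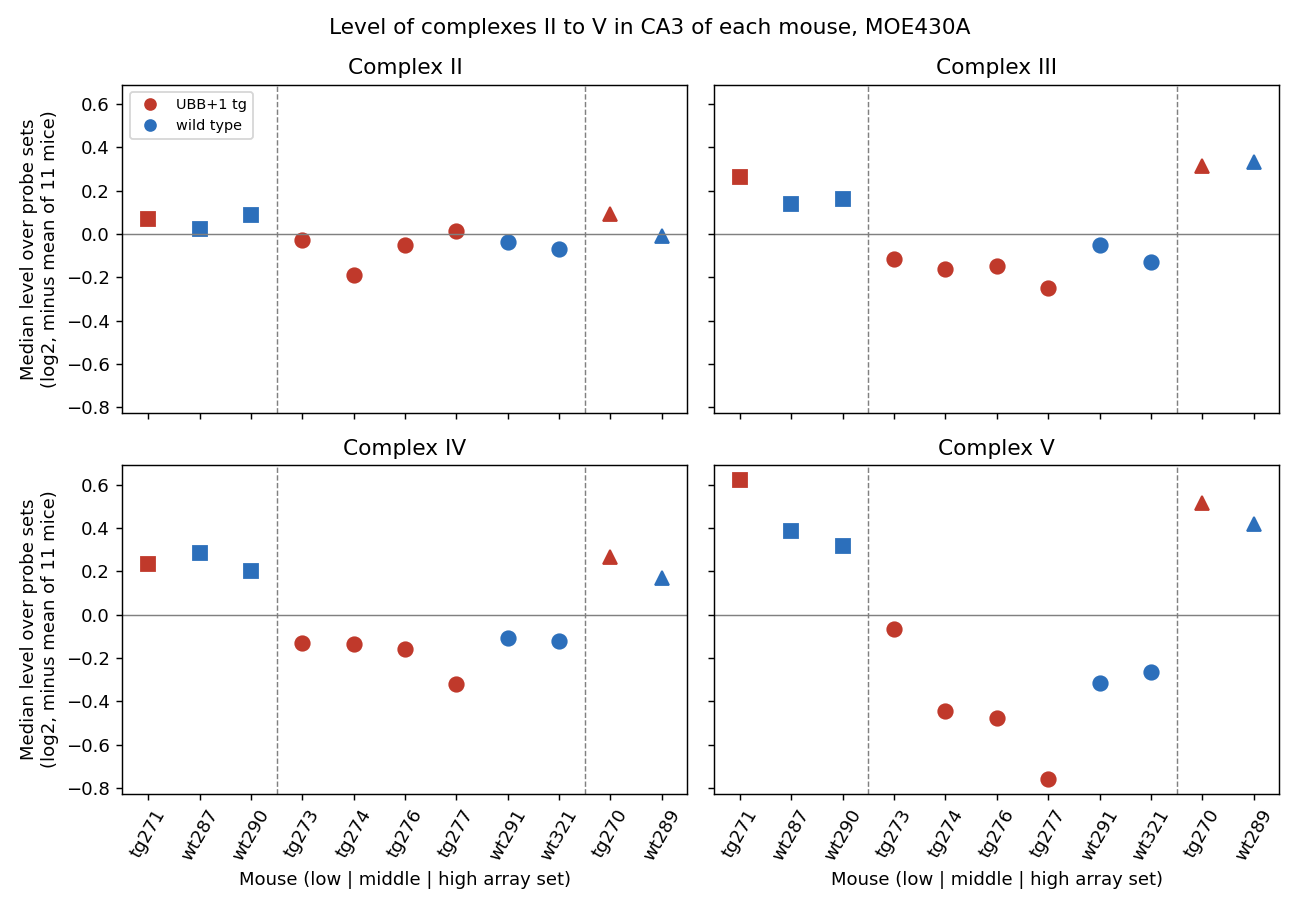
Median over the probe sets of complexes II, III, IV and V (4 panels) of the log2 level minus its mean over 11 mice (vertical axis), for each mouse on MOE430A (horizontal axis), in red for tg and blue for wild type. The array sets are parted by dashed lines. In complexes III, IV and V the mice of both genotypes in the low and high sets lie above 0 and those of the middle set below it, down to -0.76 for tg277 in complex V.

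The array sets were found by clustering values that include the members, so that the following counts are a description and carry no test. In 36 of the 86 member probe sets (41.9%) all 6 mice of the middle set were below all 5 others, against 3.93% of all probe sets on the array. In 3 of the 86 (3.49%) all 6 were above all others, against 3.09% of all probe sets. By complex, the count of such low probe sets was 0 of 7 in complex II, 7 of 16 in III, 1 of 3 of cytochrome c, 14 of 32 in IV and 14 of 28 in V. Membership in an array set accounted for a median of 78.9% of the variance of a member over the mice, against 39.6% for all probe sets and 69.3% for the 1385 with a mean of at least 10. Genotype accounted for 6.47%, against 5.39% for all probe sets and 6.83% for those with a mean of at least 10.

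Both genotypes showed the pattern separately. Among wild-type mice the low set was above the middle set in 63 of 86 probe sets, with a median difference of 0.28, and the high set in 62, with a median of 0.27. Among tg mice the counts were 65 and 62, with medians of 0.45 and 0.43. Over all probe sets the corresponding medians were 0.01, 0.02, 0.00 and 0.03. The 3′-5′ difference as a covariate left the median of the 48 genes at -0.12 and that of complex V at -0.30, whereas the block moved them to -0.04 and -0.08. A linear term cannot follow a level that is lowest in the middle set and higher in both others. The covariate fit therefore does not tell whether the 3′-5′ difference plays a part. Within the sets, the median log2 fold change of the 48 genes was 0.09 in the low set (1 against 2 mice), -0.10 in the middle set (4 against 2) and -0.01 in the high set (1 against 1). What sets the arrays apart was not tested. Choroid plexus markers averaged 5.45 to 5.58 in the middle set and 5.54 to 5.91 in the others, interneuron markers 7.64 to 8.20 and 8.07 to 8.48, and neuronal markers 9.47 to 9.59 and 9.37 to 9.68, and the part of these cell types in the result was not tested.

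Within complex V the subunits took different directions across the array sets. By their brightest probe sets, the F1 subunits alpha, beta, gamma and delta (Atp5a1, Atp5b, Atp5c1 and Atp5d) had their highest mean level in the middle set. For Atp5a1 this mean was 12.48, close to the 12.42 of the high set, and its probe set 1420037_at was highest in the high set. The other probe set of Atp5d, 1423716_s_at, was at 11.41 in the low, 10.69 in the middle and 8.72 in the high set. Of the other 13 genes of complex V, 11 had their lowest mean in the middle set, among them Atp5e and the membrane subunits Atp5g1, Atp5j2, Atp5k, Atp5l, Atp5md and Atp5mpl. In complex IV 14 of 16 genes on MOE430A had their lowest mean in the middle set. In complex III the 5 accessory subunits Uqcr10, Uqcr11, Uqcrb, Uqcrh and Uqcrq did so, while Uqcrc1 was highest there and Cyc1 and Uqcrfs1 were lower in the high set than in either other set. In all, 32 of 47 genes were lowest and 6 highest in the middle set.

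**Figure D3:**
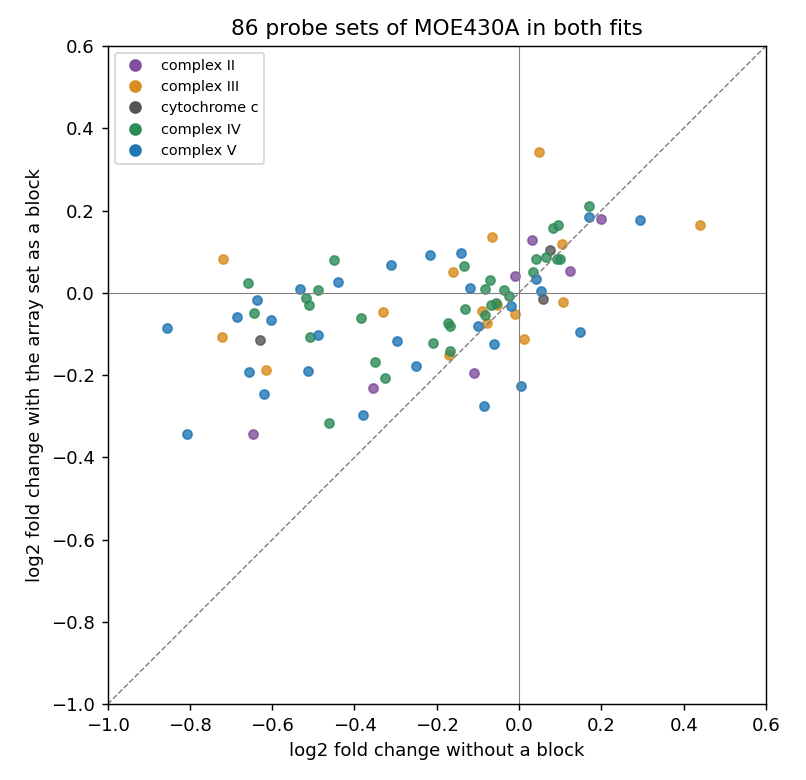
Log2 fold change of the 86 probe sets on MOE430A without (horizontal axis) and in the blocked fit with (vertical axis) the array set as a term, coloured by complex. The dashed line marks equal values. The values from -0.86 to -0.40 on the horizontal axis lie between -0.34 and 0.08 on the vertical axis.

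The spread over the mice was wide for the members and depended on the probe set. The median SD over the 11 mice was 0.41 for the 86 probe sets, against 0.22 for all probe sets and 0.35 for those with a mean of at least 10. An SD above 1 was found for 15 of the 86 (17.4%) and for 250 of all 22625 probe sets (1.10%). The median SD was 0.17 for the 22 member probe sets with a mean under 8, 0.90 for the 16 from 8 to 10, 0.57 for the 35 from 10 to 12 and 0.24 for the 13 of at least 12. The median log2 fold changes of these groups were -0.03, -0.47, -0.14 and -0.10.

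**Figure D4:**
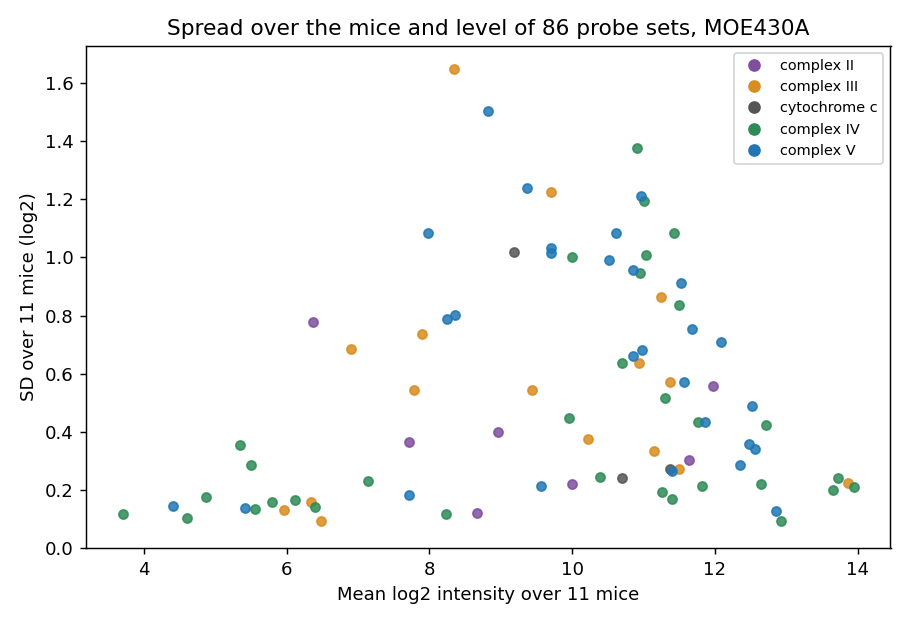
SD over 11 mice (vertical axis, log2) against mean log2 intensity (horizontal axis) of the 86 member probe sets on MOE430A, coloured by complex. The widest spread, up to 1.65, lies between means of 8 and 12, and all 13 probe sets with a mean of at least 12 have an SD below 1.

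Probe sets of the same gene often disagreed, although they were hybridised with the same RNA. Of the 26 genes with 2 or more probe sets on MOE430A, 15 had log2 fold changes of the same sign throughout, and in 13 the SD of the widest was over 3 times that of the narrowest. In some of these 13 genes the narrowest probe set was dim, with means of 6.48 for Uqcrq, 5.79 for Cox8a, 4.61 for Cox5b and 4.40 for Atp5g2. In others both were bright, as for Cox6a1 with means of 13.65 and 11.04. For Uqcrb, an accessory subunit of complex III, 1455997_a_at was between 13.47 and 14.18 in all mice, with an SD of 0.22 and a log2 fold change of -0.09. The other probe set of Uqcrb, 1416337_at, was at 6.79 to 7.30 in the 6 mice of the middle set and at 9.43 to 10.65 in the 5 others, with an SD of 1.65 and a difference of -0.72 (standard error 0.92). For Cox5b, a zinc-binding subunit of complex IV, 1456588_x_at had an SD of 0.21 and 1416902_a_at one of 1.38, with log2 fold changes of -0.13 and -0.66. Both genes were named after their values were seen. Of the 14 genes with 2 or more probe sets of a mean of at least 10, the brightest was the least variable in 10. The largest gaps in log2 fold change between probe sets of a gene were 0.83 for Uqcrq, 0.75 for Atp5g2 and 0.70 for Cycs. For Uqcrq and Atp5g2 the gap was to a dim probe set, with means of 6.34 and 4.40. The probe sets of Cycs that differed had means of 9.18 and 11.37.

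**Figure D5:**
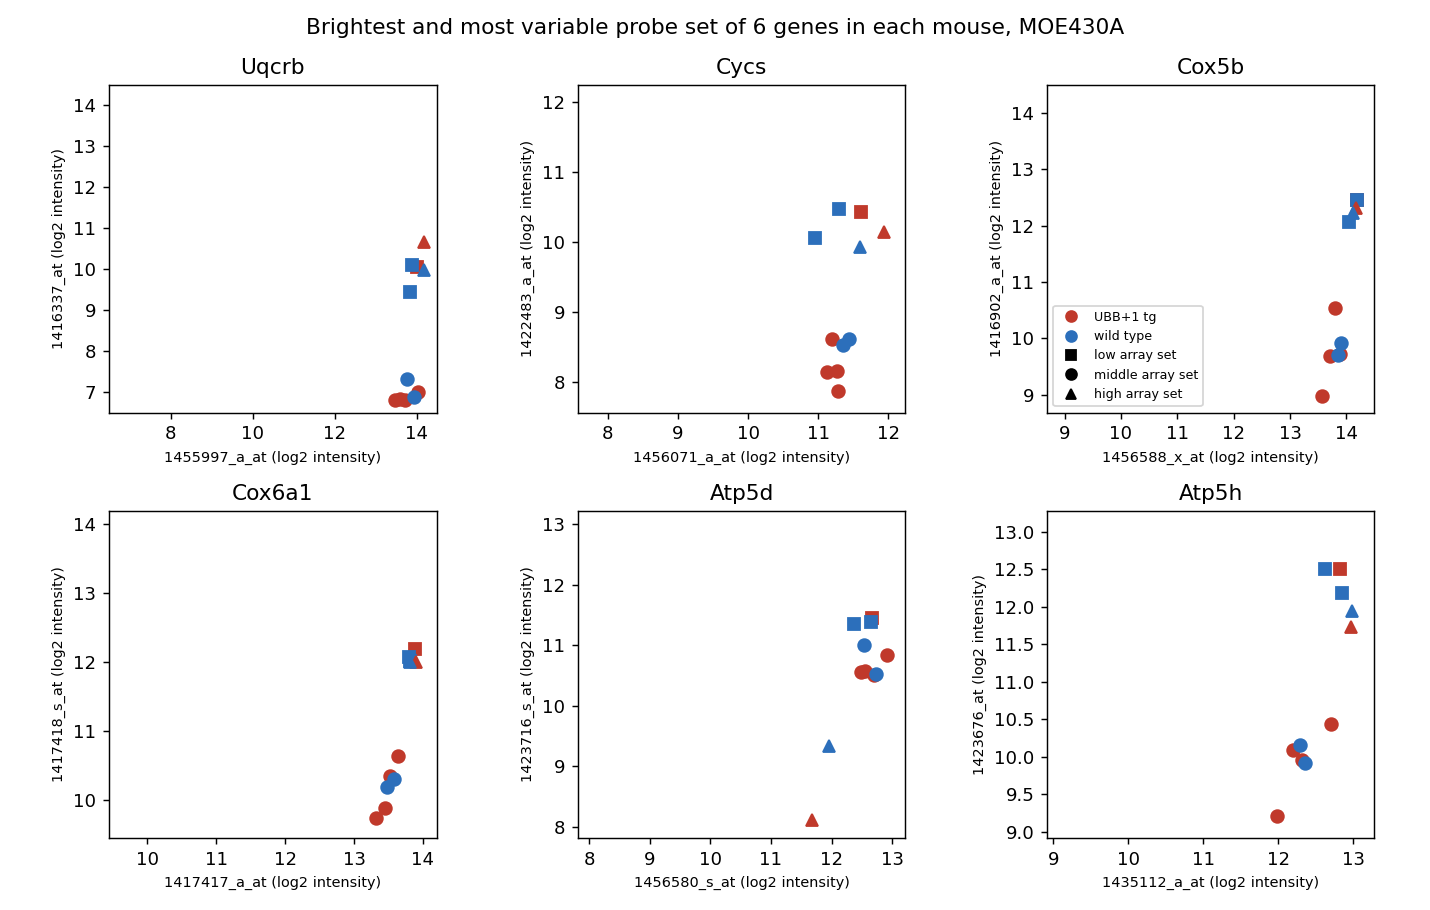
Log2 intensity of the brightest (horizontal axis) and the most variable (vertical axis) probe set of Uqcrb, Cycs, Cox5b, Cox6a1, Atp5d and Atp5h in each mouse on MOE430A, red for tg and blue for wild type. Both axes of a panel span the same range, and symbols mark the array sets. The points spread mainly along the vertical axis, as for Uqcrb with SDs of 0.22 and 1.65, and the genotypes mix within each array set.

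When limma weighted each array by how well it fitted its group, more members fell below the unadjusted threshold. The weights on MOE430A were 0.527 for tg270 and 0.424 for tg271, the tg mice outside the middle set, and 1.14 to 1.93 for the 4 other tg mice. Among wild-type mice they were 0.941 for wt287 and 1.42 for wt290 of the low set and 0.757 for wt289 of the high set. The middle-set mice wt291 and wt321 had 0.805 and 0.838. The weights thus favoured the middle set among tg mice only, and this fit does not balance the array sets between the genotypes. In this fit 29 of the 86 probe sets on MOE430A (33.7%) had an unadjusted p under 0.05, against 10.4% of all probe sets, and 27 of these were lower in tg mice. On MOE430B it was 1 of 10, Cox6a2, against 6.13% of all. Per gene, 17 of 48 were called, 16 of them lower, with 9 in complex V, 5 in IV, 2 in III and 1 in II, and the higher one was Atp5a1. The median log2 fold change was then -0.18 over the 48 genes, -0.17 in complex IV, -0.18 in complex III and -0.55 in complex V. No member passed the false discovery rate, the lowest adjusted p of a gene being 0.473 from limma with array weights.

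Other genes of the pathway were counted for comparison. Of 33 subunits of complex I, which feeds electrons from NADH into the same chain, 7 were higher, with a median log2 fold change of -0.21 and of -0.08 in the blocked fit. Of 32 assembly factors of complexes II to V 9 were higher, with a median of -0.21 and of -0.07 with the block. Of 12 regulators of the transcription of respiratory genes 10 were higher, with medians of 0.16 and 0.17. Among them were Ppargc1a, a coactivator of mitochondrial biogenesis, at 0.52 (standard error 0.31), and Esrra, a nuclear receptor it works with, at 0.14 (standard error 0.08). With the block these were 0.34 and 0.17. Nrf1 was at 0.09 and Gabpa at 0.14. The lower genes were Gabpb1 at -0.22 and Sp1 at -0.12, and -0.19 and -0.35 with the block. Of 10 citric acid cycle enzymes 7 were higher, with medians of 0.09 and -0.05, and of 6 regulators and partners of the ATP synthase 3 were higher, with medians of -0.04 and -0.01. No gene of these lists passed the false discovery rate in either fit of limma.

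The smallest unadjusted p of these lists belonged to Atpaf1, an assembly factor that binds the beta subunit of F1, and it was named for that after its values were seen. On MOE430B, probe set 1436358_at was at 9.44, 9.67 and 10.34 in tg mice and at 8.19, 9.25, 8.56, 9.52, 8.55 and 8.71 in wt287, wt289, wt290, wt291, wt321 and wt331. Only wt291 reached into the range of the tg mice. Its log2 fold change was 0.95 (standard error 0.22, limma adjusted p = 1.00) and 0.85 in the blocked fit. The other probe set, 1434934_at, gave 0.12 (standard error 0.16), with tg mice at 7.74 to 8.97 and wild-type mice at 8.07 to 8.59.

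Nuclear respiratory genes are known targets of the factors NRF1 and GABP, the latter of the ETS family. RefSeq promoter windows of build GRCm38.p6 were at hand for 36 of the 48 genes, with 39 start sites, and the 250 bases before each start were searched on both strands for short letter strings. GCGCANGCG, the core of the NRF1 motif, lay in 9 of the 39 windows (23.1%), against 5.16% of 32851 windows of all genes, and CCGGAAG, the core of the ETS motif, in 9 (23.1%), against 6.91%. GGGCGG, read by Sp1, lay in 12 of the 39 (30.8%) against 32.7%. AAGATGGCG, read by YY1, lay in only 1 of the 39 (2.56%) against 0.606%. TCAAGGTCA, read by ERRα, likewise lay in only 1 (2.56%) against 0.387%. A match is a string of letters and not a bound site, and windows of start sites close together share sequence.

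Of the 36 genes 14 held an NRF1 or an ETS string, and 11 of these 14 were lower in tg mice, with a median log2 fold change of -0.34. Of the 22 genes with neither string 15 were lower, with a median of -0.12. In the blocked fit 10 of the 14 and 13 of the 22 were lower, and the medians were -0.09 and -0.04. This comparison carries no test, as the log2 fold changes were not past the spread between mice. The 4 genes that held both strings are shown, as they span complexes II, IV and V: Sdhd at chr9:50603850-50604099, Cox6a1 at chr5:115348959-115349208, Atp5h at chr11:115419920-115420169 and Atp5l at chr9:44920743-44920992, all on the minus strand. Each run reads 5′ to 3′ and ends at the base before the start site, and capitals mark the NRF1 and ETS strings on either strand.
Sdhd: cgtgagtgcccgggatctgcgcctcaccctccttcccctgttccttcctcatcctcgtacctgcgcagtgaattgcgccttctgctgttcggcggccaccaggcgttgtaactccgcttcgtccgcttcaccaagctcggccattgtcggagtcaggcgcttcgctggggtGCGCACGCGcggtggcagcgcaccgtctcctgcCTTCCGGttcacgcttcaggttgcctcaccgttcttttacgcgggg
Cox6a1: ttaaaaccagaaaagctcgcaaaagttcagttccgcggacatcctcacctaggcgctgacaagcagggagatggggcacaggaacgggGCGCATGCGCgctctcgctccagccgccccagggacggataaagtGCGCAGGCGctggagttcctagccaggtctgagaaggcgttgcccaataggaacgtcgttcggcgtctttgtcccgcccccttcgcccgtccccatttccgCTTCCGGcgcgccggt
Atp5h: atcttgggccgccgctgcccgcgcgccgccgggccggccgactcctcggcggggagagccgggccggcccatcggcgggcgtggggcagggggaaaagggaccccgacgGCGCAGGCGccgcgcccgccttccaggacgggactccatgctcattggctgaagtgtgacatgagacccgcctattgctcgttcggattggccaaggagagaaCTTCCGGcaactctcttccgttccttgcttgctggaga
Atp5l: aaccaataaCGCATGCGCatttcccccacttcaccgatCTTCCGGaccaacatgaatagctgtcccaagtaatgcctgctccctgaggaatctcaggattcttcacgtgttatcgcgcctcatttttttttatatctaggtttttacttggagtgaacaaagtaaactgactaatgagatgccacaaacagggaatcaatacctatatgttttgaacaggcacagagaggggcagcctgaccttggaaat
In Cox6a1 the NRF1 strings overlap at 162 and 161 bases before the start and recur at 117, with an ETS string at 16. In Sdhd the strings lie at 79 and 46 bases, in Atp5h at 141 and 38, and in Atp5l at 241 and 212, each position being that of the leftmost base of the string. The log2 fold changes of these genes were -0.36 for Sdhd, -0.08 for Cox6a1, -0.12 for Atp5h and -0.49 for Atp5l, and -0.23, 0.01, 0.01 and -0.10 in the blocked fit.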

How the data were processed

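Transcript levels in CA3, cut by laser from UBB+1 tg and wild-type brains, were read on Affymetrix MOE430A and MOE430B arrays. The intensities used are those deposited by the authors, summarised per probe set by RMA, separately for each array, on a linear scale for MOE430A. The values of MOE430B were deposited by the authors on the log2 scale, and those of MOE430A were transformed to log2 here. RMA is named in the submitters' processing notes, and its version is not given in the sources used here. RMA values carry no depth, so precision is limited by how many arrays there are.

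The 64 controls of each array and, on MOE430A, the probe set of the transgene's promoter were left out. Groups came from the sample labels. Differences were fitted in R 4.3.3 with limma 3.58.1 (lmFit, eBayes) over 22625 and 22511 probe sets, with Benjamini-Hochberg adjustment within each array and a false discovery rate of 10%, as the study's methods state for limma. The gene names are those of the array annotation. Each gene was represented by its probe set with the highest mean, taken from MOE430A where present. Named genes were the 4 with the smallest p per complex, the catalytic, electron-carrying and c subunits, the tissue-restricted isoforms, any gene past the false discovery rate or without overlap, and the 3 genes whose probe sets differed most. Other genes were named after their values were seen. Arrays were clustered by complete linkage, with 1 minus Pearson r as distance, and 3 sets were taken. The members, lists and settings were chosen with earlier results of these data known. The alternatives were other filters, centring, variance models, array weights, a 3′-5′ covariate, the array set as a term, the middle set alone, averaged probe sets and each mouse left out. The fit was tested on simulated data.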

Additional observations from a re-analysis of the deposited data

Results flagged for a closer look

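In Atp5g2, mouse tg271 stood apart from the other tg mice, at 9.54 with probe set 1415980_at against 6.69 to 7.71 in the 5 others. In Cox7a1, mouse tg270 stood apart at 5.29 with probe set 1418709_at, against 4.64 to 4.86. Both stand out by the gap to the nearest mouse relative to the range of the group. These were 2 of 60 groups examined in this way, and chance alone gives about 1 in 20. The groups were each genotype for the 28 named genes and for the median level over the members on each array. Both mice are those of the tg group outside the middle array set.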

How the results depend on the processing

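No member probe set passed the false discovery rate on either array under any setting that kept the probe sets apart. With probe sets averaged per gene this was examined for the named genes only, and none of them passed. The lowest adjusted p of a named gene under any setting was 0.473 from limma. No paired analysis was possible because no number or litter in the labels links a tg to a wild-type mouse. Of the 28 named genes, 15 kept their sign under every setting. The number of arrays limits what can be called.

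The number of member genes with an unadjusted p under 0.05, 0 at first, was 17 with array weights and 1 under each of these settings: without the _s_at and _x_at probe sets, median centring, a trend and robust variance model, the blocked fit, the middle set, and probe sets averaged per gene. It was 0 to 4 when a mouse was left out, the 4 without tg271. The number of genes higher in tg mice, 14, was 9 with probe sets averaged and 12 to 17 when a mouse was left out. The median log2 fold change of complex II, -0.06, was -0.23 without the _s_at and _x_at probe sets, 0.0252 with the 3′-5′ covariate, -0.14 with probe sets averaged, and -0.18 (without wt289) to 0.0317 (without tg270) when a mouse was left out. The median ranged, when a mouse was left out, from -0.27 to -0.08 for complex III, from -0.13 to -0.02 for complex IV and from -0.43 to -0.21 for complex V. Under the other settings it ranged from -0.18 (array weights) to -0.07 (the blocked fit) for complex III, from -0.17 (array weights) to 0.00918 (the middle set) for complex IV and from -0.55 (array weights) to -0.08 (the blocked fit) for complex V.

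Signs turned as follows. Array weights gave 0.0496 for Sdhb, -0.0127 for Cox4i2 and 0.17 for Atp5b. The 3′-5′ covariate gave 0.0424 for Sdhb, 0.00794 for Sdhc, 0.0214 for Cyc1, -0.0397 for Cox7b2 and 0.10 for Atp5b. The blocked fit gave 0.0411 for Sdhc, 0.0305 for Cox6a2, 0.00720 for Cox7a1 and -0.0379 for Cox7b2. The middle set gave 0.0658 for Sdhc, -0.18 for Cycs, 0.00586 for Cox6a2, 0.00918 for Cox6b2, 0.18 for Cox8b and, with another probe set as the brightest, 0.0329 for Cox6c. Probe sets averaged gave -0.16 for Cycs and -0.12 for Cox5a. When a mouse was left out, the range was -0.36 to 0.0964 for Sdhb, -0.0614 to 0.0504 for Sdhc, -0.20 to 0.0194 for Cyc1, -0.0325 to 0.14 for Cycs, -0.15 to 0.0260 for Cox6a2, -0.12 to 0.00548 for Cox7a1, -0.0741 to 0.11 for Cox7b2 and -0.38 to 0.24 for Atp5b. The cause was not tested.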
